A study of Mus musculus with 12 samples.

Results

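The 10 genes described here encode ligands, receptors and feedback inhibitors of the epidermal growth factor (EGF) and fibroblast growth factor (FGF) receptor pathways. They were given as a list (Areg, Ereg, Hbegf, Egfr, Erbb2, Erbb3, Fgfr2, Spry2, Spry4 and Dusp6), and all 10 were found by symbol among the 21878 genes of the deposited expression table. RNA of sorted mouse alveolar type 2 (AT2) cells was measured in 12 samples, 3 in each of 4 groups. AT2-PBS and AT2-BLM cells came from Atg5f/f mice, and Atg5-/- AT2-PBS and Atg5-/- AT2-BLM cells came from Nkx2.1Cre;Atg5f/f mice. All mice carried the floxed Atg5 allele and were on the C57BL/6 background, and the BLM groups received intratracheal bleomycin at 2 U/kg while the PBS groups received phosphate-buffered saline. The study's methods give male mice of 8 to 12 weeks for the bleomycin experiments and day 14 for cell isolation, but no day is named for the Atg5-/- AT2-PBS group. Nkx2.1 is active in the lung epithelium from early development, so this Cre deletes Atg5, an essential autophagy gene, in airway as well as alveolar epithelium and long before injury. The sort kept EpCAM+ cells that lacked CD24, Sca-1, CD31, CD34 and CD45. The labels do not say whether the 3 samples of a group came from separate mice, so the p-values measure only the spread between these samples, which may be technical.

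Areg (amphiregulin), Ereg (epiregulin) and Hbegf (heparin-binding EGF-like growth factor) are membrane-anchored ligands that are cut free by ADAM proteases and bind EGFR, and epiregulin and HB-EGF also bind ERBB4. Binding pairs EGFR with itself or with ERBB2 or ERBB3. ERBB2 has no known ligand and ERBB3 has a weak kinase, so both act as partners. Fgfr2 encodes the receptor through which the lung epithelium receives FGF7 and FGF10 from the mesenchyme. Both receptor families switch on the RAS-ERK cascade, which in turn induces its own brakes, among them the Sprouty proteins Spry2 and Spry4 and the ERK phosphatase Dusp6. In the adult lung these pathways are known for their part in AT2 cell maintenance and in repair after injury.

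RefSeq promoter entries (build GRCm38.p6) were matched for 6 of the 10 genes, Areg, Egfr, Erbb2, Fgfr2, Spry2 and Dusp6. The 120 bases just before the annotated start are shown for the tested ligand with the widest range among samples, for the 2 receptors that were called with BLM and for the feedback gene with a promoter match to the ETS core. Capitals mark the motifs that were found.
Areg, chr5:91139479-91139598, plus strand: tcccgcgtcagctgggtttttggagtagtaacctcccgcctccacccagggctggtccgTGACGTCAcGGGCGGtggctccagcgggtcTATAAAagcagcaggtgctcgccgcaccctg
Erbb2, chr11:98412364-98412483, plus strand: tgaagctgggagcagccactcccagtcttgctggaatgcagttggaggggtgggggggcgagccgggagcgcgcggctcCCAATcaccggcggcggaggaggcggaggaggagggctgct
Fgfr2, chr7:130266809-130266928, minus strand: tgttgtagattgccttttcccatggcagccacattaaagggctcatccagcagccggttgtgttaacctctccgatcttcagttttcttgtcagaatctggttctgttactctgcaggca
Dusp6, chr10:99263111-99263230, plus strand: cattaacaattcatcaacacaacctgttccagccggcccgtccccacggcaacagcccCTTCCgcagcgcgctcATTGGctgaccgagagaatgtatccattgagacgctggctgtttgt
The Areg stretch held the cAMP response element TGACGTCA from base -61, the GC box GGGCGG from base -52 and the TATA box TATAAA from base -31, counted back from the start. Both strands of the 250 bases before each start were searched for 7 motifs. TGACGTCA was in 1.55% of 32841 promoters and in 1 of the 6 matched here, TATAAA in 12.4% and again only in that of Areg, and GGGCGG in 32.7% and in those of Areg and Egfr. The CCAAT box (CCAAT) was in 33.9% of promoters and in those of Erbb2, from base -41, and Dusp6, on the opposite strand from base -46. The ETS core GGAAG was in 64.1% of promoters and in 5 of the 6 here, all but Spry2, and in Dusp6 its reverse complement starts at base -62. The match in Fgfr2 starts at base -207, outside the stretch shown, which held none of the 7 motifs. The AP-1 site TGANTCA (6.75% of promoters) and the E-box CACGTG (6.02%) were in none of the 6 windows. No matches overlapped, and a match is a description of letters only.

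Values were FPKM, fragment numbers scaled for transcript length and library size that can be compared between genes. Total depth is unknown from FPKM, and the summed FPKM per sample ranged from 390141 to 549169. The targeted gene gave no check of the labels with PBS, since whole-gene Atg5 was 6.01 to 12.5 FPKM in AT2-PBS and 6.72 to 10.1 FPKM in Atg5-/- AT2-PBS. After BLM the ranges were apart by little, at 9.97 to 11.1 FPKM in AT2-BLM and 8.37 to 8.84 FPKM in Atg5-/- AT2-BLM. AT2 markers other than Sftpc summed to 24670 to 42240 FPKM over all 12 samples, while Sftpc was listed at 0 in 11 of them. The Atg5-/- AT2-PBS libraries also held markers of other cells, with a summed level of 10 leukocyte markers of 397.5 to 519.5 FPKM (9.59 to 38.8 in AT2-PBS) and of 6 fibroblast markers of 89.7 to 100.9 FPKM (3.49 to 12.8 in AT2-PBS). Club and ciliated cell markers summed to 23410 to 85010 FPKM there against 4969 to 11780 in AT2-PBS. Most of that sum was the club cell gene Scgb1a1, at 22570 to 83590 and 4776 to 11510 FPKM. This also held in the BLM groups, so the sum says little of the ciliated genes. Ly6a encodes the Sca-1 antigen sorted against. It reached 368.4 to 754 FPKM in Atg5-/- AT2-PBS against 7.36 to 16.8 in AT2-PBS and 63.1 to 984.4 in the BLM groups. Ins2, an islet gene, stood at 1949 to 2003 FPKM in 3 libraries (AT2-PBS 1, Atg5-/- AT2-PBS 1 and Atg5-/- AT2-PBS 2) and at most 3.86 in the rest. A list of 8 liver and islet markers, Ins2 among them, still summed to 1945 FPKM in Atg5-/- AT2-PBS 3. It summed to 158.8 to 553.9 FPKM in AT2-BLM, 121.7 to 853.8 in Atg5-/- AT2-BLM, and 5.17 and 3.34 in AT2-PBS 2 and 3. Fits without the libraries with Ins2 are thus not free of such RNA. Y-linked genes summed to under 1 FPKM in 7 libraries and to 14.2 to 20.9 in the other 5, against the stated male mice. The 5 were AT2-PBS 2 and 3, AT2-BLM 3 and Atg5-/- AT2-BLM 2 and 3, so the groups were not balanced. All Atg5-/- AT2-PBS libraries were among the 7. Where a call among the 10 genes changed without the 3 libraries with Ins2, this is said beside it. For the other pathway genes only lost calls are named, and genes called only without those libraries are not.

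Levels of the 10 genes spanned more than 2 orders of magnitude. In AT2-PBS the mean FPKM ran from Areg (71.4) and Fgfr2 (71.3) through Spry2 (35.7), Dusp6 (27.8) and Hbegf (26.0) to Erbb3 (8.93), Erbb2 (8.54), Egfr (1.27), Spry4 (0.429) and Ereg (0.00536). Neighbours in that order had overlapping ranges except at Fgfr2 to Spry2, Hbegf to Erbb3, Erbb2 to Egfr, Egfr to Spry4 and Spry4 to Ereg. Fgfr2 and Areg stood at the same percentile, 92.2, of the 10675 genes that were tested, and Egfr at 17.0. Areg led in both Atg5f/f groups and Fgfr2 in both Atg5-/- groups, though the ranges of these 2 genes were apart only in AT2-BLM. After BLM in Atg5f/f mice, Fgfr2 stood behind Areg (52.9), Hbegf (38.4) and Dusp6 (36.3), at 32.8 FPKM.

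**Figure D1:**
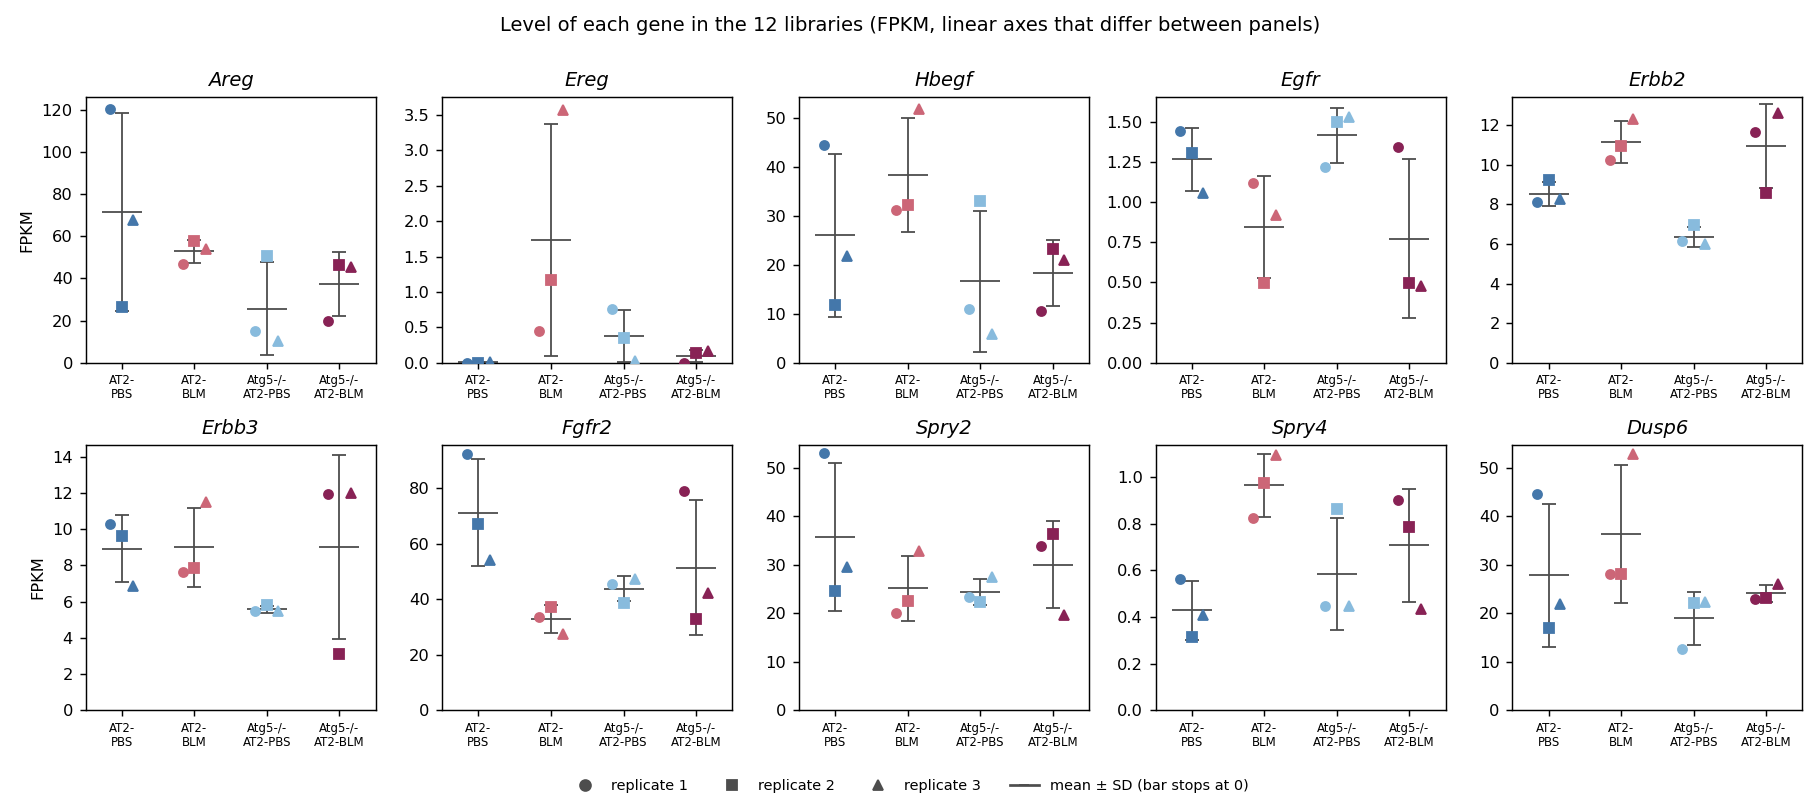
FPKM of each of the 10 genes in the 12 libraries by group, with replicates as symbols and the group mean ± SD (n = 3) as bars, on linear axes that differ between panels. Fgfr2 lies lower in all 3 AT2-BLM libraries (27.4 to 37.3) than in AT2-PBS (54.4 to 92.5), while Areg and Hbegf are widely spread in both PBS groups.

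Changes are called by the study's own criterion, a fold of 1.4 or more whose p before adjustment is under 0.05, and 8 of the 10 genes passed the filter on low values and were tested (Ereg and Spry4 did not). With BLM in Atg5f/f AT2 cells, Fgfr2 fell and none of the other 7 was called. Over all genes tested 7.77% were called lower and 20.6% higher in this comparison, 17.4% had a fold of at least 1.4 with an adjusted p under 0.05, as Fgfr2 did, and 40.2% had group ranges that did not overlap, as 2 of the 8 did (Fgfr2 and Erbb2). With BLM in Atg5-/- AT2 cells Erbb2 rose and no other was called, against 7.66% of all genes called higher, 10.7% called lower and 8.65% called with an adjusted p. Ranges were apart there for Erbb2 and Dusp6, 2 of 8, against 24.9% of all genes. With PBS, Areg and Fgfr2 were called lower in Atg5-/- than in Atg5f/f cells, where 5.16% of all genes were called lower and 14.1% higher. Neither passed the adjusted p, which 11.2% of all genes did. Ranges were apart for 3 of the 8 (Erbb2, Erbb3 and Fgfr2), against 28.9%. Between the genotypes after BLM none of the 8 was called (limma, 0 also at an unadjusted p under 0.05 alone), with 2.04% of all genes higher, 3.12% lower and 0.00937% called with an adjusted p, and 3 had ranges apart (Areg, Hbegf and Dusp6), against 13.4%. The BLM effect itself differed between genotypes for Fgfr2 alone among the 8, with 5.02% of all genes called in that direction, 15.2% in the other and 7.89% with an adjusted p. With 8 genes tested, 1 call is already a share of the size of these backgrounds, and nothing is read from the counts themselves. These comparisons share groups of samples, so their results are not independent.

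**Figure D2:**
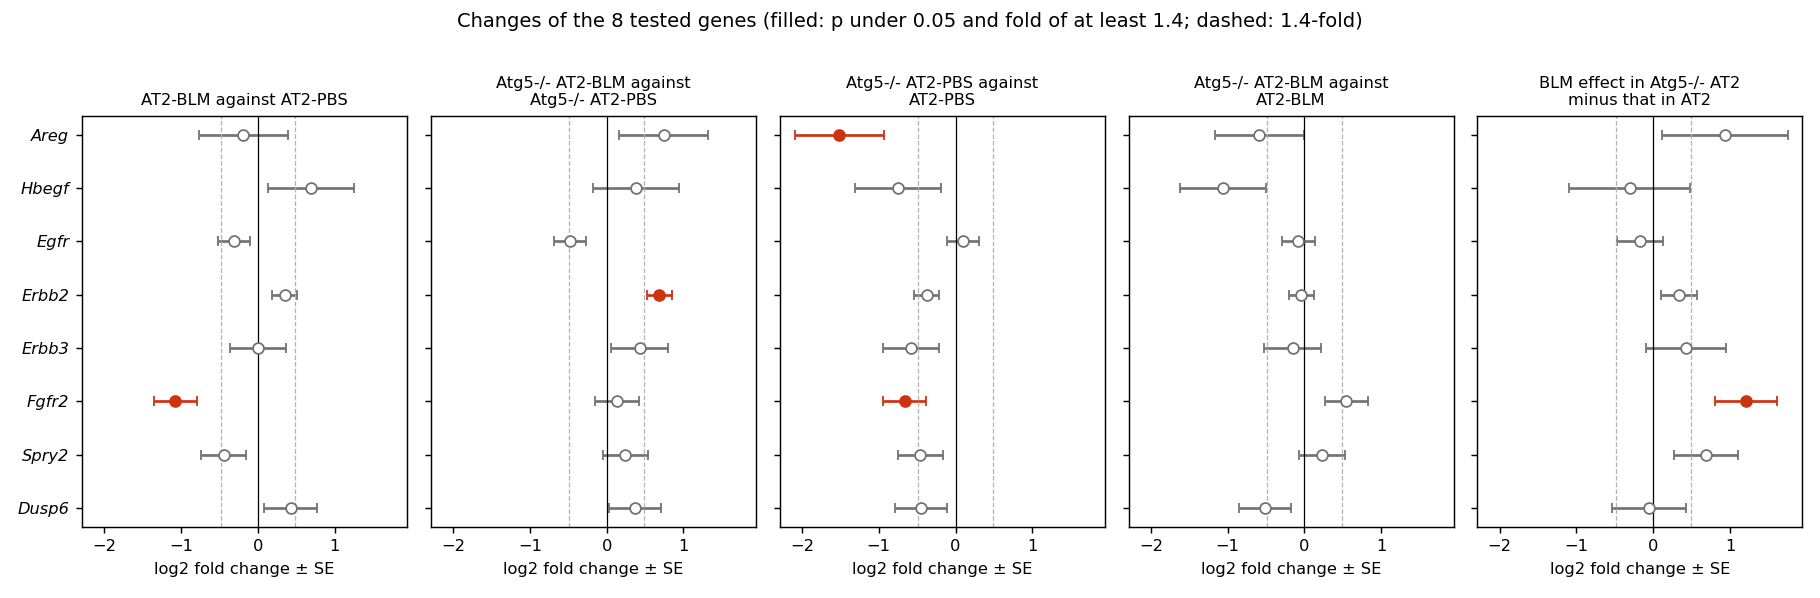
Log2 fold change ± SE of the 8 tested genes in the 4 comparisons of 3 against 3 samples and, in the right panel, the difference of the BLM effects, with filled points for called changes and dashed lines at 1.4-fold. Fgfr2 is lower with BLM in Atg5f/f cells (-1.07) and near 0 in Atg5-/- cells (0.13), and the difference is 1.21.

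Fgfr2 encodes the FGF receptor that was the most abundant of its family in these cells. Its FPKM was 92.5, 67.1 and 54.4 in AT2-PBS and 33.7, 37.3 and 27.4 in AT2-BLM. Every AT2-BLM library lay under every AT2-PBS library. In the Atg5-/- cells it was 45.4, 38.8 and 47.3 with PBS and 79.0, 33.0 and 42.1 with BLM, so that 1 BLM library lay above all PBS libraries and another below them. The change with BLM in Atg5f/f cells was -1.07 ± 0.28 on the log2(FPKM + 1) scale (SE, n = 3 against 3; limma adjusted p = 0.0237), 2.11-fold lower, and it was also called without each library in turn, without the libraries with Ins2 (-0.87) and under each scaling run. Fewer cells of a type and less RNA per cell cannot be told apart in such bulk samples. The sum of the AT2 markers without Sftpc was 24670 to 36830 FPKM in AT2-PBS and 25060 to 42240 in AT2-BLM, with overlapping ranges. Such a sum is set by its most abundant genes. Etv5, a small part of it, was lower with BLM without overlap, at 213.2 to 241.7 FPKM in AT2-PBS and 108.2 to 150.7 in AT2-BLM. Other markers moved with this contrast, since 6 markers of transitional epithelium summed to 595.5 to 1065 FPKM in AT2-PBS and 1379 to 3392 in AT2-BLM, 8 AT1 markers to 1874 to 2277 and 2363 to 3487, and the leukocyte markers to 9.59 to 38.8 and 40.6 to 113.5. Club and ciliated markers, mostly Scgb1a1, were lower instead, at 4969 to 11780 FPKM in AT2-PBS and 881.9 to 4973 in AT2-BLM, with ranges just overlapping. The part of these markers in the Fgfr2 contrast was not tested. The transitional markers overlapped in the Atg5-/- cells, at 600.9 to 891.6 FPKM with PBS and 621.4 to 1255 with BLM. Other lists were apart there. The AT1 markers were higher with BLM, at 1449 to 1745 FPKM with PBS and 2189 to 2579 with BLM. Leukocyte markers were lower with BLM (397.5 to 519.5 against 44.15 to 142.8), as were club and ciliated markers (23410 to 85010 against 1175 to 2184). In Atg5-/- cells the same contrast gave 0.13 ± 0.28 (adjusted p = 0.858), with -0.22 without Atg5-/- AT2-BLM 1, the library at 79.0, and -0.32 with scaling to Cdh1, and it was called at 0.49 with Y-linked expression as a covariate. Set against the median change of all genes tested with BLM in Atg5f/f cells, 0.17, the fall of Fgfr2 was -1.25.

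The difference between these BLM effects on Fgfr2 was 1.21 ± 0.40 on the log2 scale (limma adjusted p = 0.0932). It passed the study's criterion and not the adjusted threshold. It was 0.85 without Atg5-/- AT2-BLM 1 and 0.89 without the 3 libraries with Ins2, where the call was lost. With PBS, Fgfr2 was lower in Atg5-/- than in Atg5f/f cells (-0.66 ± 0.28, limma adjusted p = 0.184), with ranges apart. That call was lost when any of the compared libraries other than AT2-PBS 3 was left out, with values between -0.46 (without AT2-PBS 1) and -0.72 (without Atg5-/- AT2-PBS 3), and it was -0.35 without the Ins2 libraries and -0.27 with scaling to Cdh1. Leukocyte, fibroblast and airway markers were higher in the Atg5-/- AT2-PBS libraries, as given above, and their part in this difference was not tested. After BLM the Fgfr2 level was 0.55 ± 0.28 higher in Atg5-/- cells, which was not called (adjusted p = 0.657) and had overlapping ranges, and it was called at 0.81 without Atg5-/- AT2-BLM 2, and at 0.68, 0.61 and 0.71 after quantile normalization, median-ratio scaling and scaling to Cdh1.

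The other FGF pathway genes come from a list of 72 further EGF, FGF and ERK pathway genes, of which 48 were tested. Fgfr3, another FGF receptor, was 3.28, 4.43 and 3.79 FPKM in AT2-PBS and 1.58, 1.53 and 1.55 in AT2-BLM, a fall of -0.91 ± 0.19 (adjusted p = 0.0085). Fgf1, the 1 FGF ligand of the list that passed the filter, was 29.1, 35.0 and 26.2 FPKM in AT2-PBS and 16.2, 12.6 and 14.8 in AT2-BLM (-0.998 ± 0.28, adjusted p = 0.0292). Both genes thus moved down with BLM with no overlap, as Fgfr2 did. Etv5, an ETS factor that FGF signaling induces and that AT2 cells need, was 241.7, 227.9 and 213.2 FPKM in AT2-PBS and 150.7, 146.7 and 108.2 in AT2-BLM, a fall whose call was lost without AT2-BLM 3 (-0.61) and without the Ins2 libraries (-0.72). Spry1, a Sprouty relative of the listed genes, was 80.8, 35.8 and 147.5 FPKM in AT2-PBS and 28.7, 34.6 and 25.1 in AT2-BLM (-1.34 ± 0.38, adjusted p = 0.0328). Its lowest AT2-PBS value lay just above the highest AT2-BLM value. Etv5 in Atg5-/- cells was 160.1, 125.3 and 150.7 FPKM with PBS and 270.5, 113.7 and 150.5 with BLM. Atg5-/- AT2-BLM 1 was the highest of its group for Fgfr2, Fgfr3, Fgf1 and Etv5 alike.

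**Figure D3:**
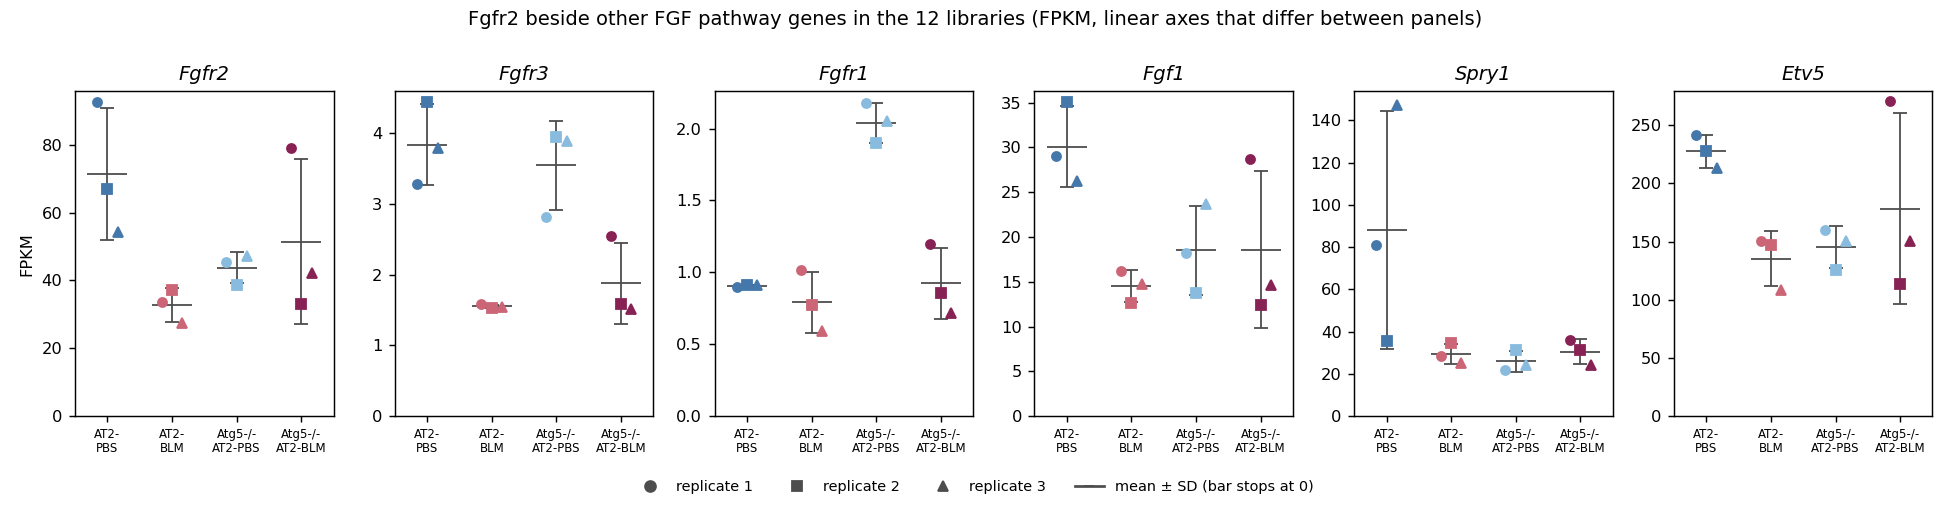
FPKM of Fgfr2 and 5 other FGF pathway genes in the 12 libraries, with group mean ± SD (n = 3) on linear axes that differ between panels. Fgfr2, Fgfr3, Fgf1, Spry1 and Etv5 lie lower in AT2-BLM than in AT2-PBS without overlap, Fgfr1 is highest in Atg5-/- AT2-PBS (1.90 to 2.18), and Atg5-/- AT2-BLM 1 stands above the other libraries of its group.

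Fgfr1, which stromal cells express strongly, stood at 0.899, 0.910 and 0.910 FPKM in AT2-PBS, at 2.18, 1.90 and 2.05 in Atg5-/- AT2-PBS, at 1.01, 0.772 and 0.590 in AT2-BLM and at 1.20, 0.854 and 0.716 in Atg5-/- AT2-BLM. It rose by 0.67 ± 0.16 with loss of Atg5 under PBS (adjusted p = 0.0146), in the libraries that held the fibroblast and leukocyte markers, whose part in it was not tested. Fgfr4 was at most 0.397 FPKM in any library. Fgf7 reached 1.99 and Fgf10 0.403 FPKM, both in Atg5-/- AT2-PBS libraries. The mesenchymal ligands of Fgfr2 were thus near 0 in the other groups, at 0.108 FPKM or less for Fgf7.

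Areg was the most abundant of the EGF family ligands. Its FPKM was 120.2, 26.5 and 67.6 in AT2-PBS and 47.0, 57.6 and 54.2 in AT2-BLM. The AT2-BLM libraries lay close together, inside the range of AT2-PBS. In Atg5-/- cells it was 15.3, 50.9 and 10.5 FPKM with PBS and 19.7, 46.6 and 45.4 with BLM. The change with BLM was -0.19 ± 0.58 in Atg5f/f cells (adjusted p = 0.844) and 0.74 ± 0.58 in Atg5-/- cells (adjusted p = 0.527), and neither was called. The first value was 0.31 without AT2-PBS 1, and the second was 1.63 and called without the libraries with Ins2. That fit leaves only Atg5-/- AT2-PBS 3 of its group, the library with the lowest Areg there (10.5 FPKM). With PBS, Areg was lower in Atg5-/- cells (-1.52 ± 0.58, limma adjusted p = 0.134), 2.86-fold, with overlapping ranges. That call was lost without AT2-PBS 1 (-1.02), AT2-PBS 3 (-1.43), Atg5-/- AT2-PBS 1 (-1.32) or Atg5-/- AT2-PBS 3 (-1.07), with scaling to Cdh1 (-1.14), and at an unchanged value when only the 2 groups were fitted. Markers of other cells were higher in the same Atg5-/- libraries, and their part was not tested. After BLM every Atg5-/- library lay under every Atg5f/f library for Areg, by little at 46.6 against 47.0 FPKM, and the change of -0.59 ± 0.58 was not called (adjusted p = 0.824).

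Hbegf was the second ligand that passed the filter. It was 44.4, 11.8 and 21.8 FPKM in AT2-PBS, 31.2, 32.2 and 51.8 in AT2-BLM, 10.9, 33.1 and 5.88 in Atg5-/- AT2-PBS and 10.7, 23.2 and 21.1 in Atg5-/- AT2-BLM. Its highest library was AT2-BLM 3, which also held the highest level of the keratin Krt8 (1266 FPKM against 163.4 to 566 in the others), whose part in the Hbegf level was not tested. Over the 12 libraries Areg spanned 11.4-fold and Hbegf 8.8-fold, while the Areg to Hbegf ratio of FPKM stayed between 1.05 and 3.1. The BLM contrast of Hbegf was 0.69 ± 0.56 in Atg5f/f cells (adjusted p = 0.399) and 0.39 ± 0.56 in Atg5-/- cells (adjusted p = 0.772, and -0.04 with scaling to Cdh1). Without the libraries with Ins2 these were 1.16 and 1.42, both called. The second then rests on Atg5-/- AT2-PBS 3 alone of its group, the library with the lowest Hbegf there (5.88 FPKM). After BLM, Hbegf was lower in Atg5-/- than in Atg5f/f cells in every library (-1.06 ± 0.56, adjusted p = 0.66), 2.09-fold, which missed the criterion, and with PBS it was -0.75 ± 0.56 (adjusted p = 0.484). It was called with PBS without the Ins2 libraries (-1.31), again with Atg5-/- AT2-PBS 3 as the only library of its group. After BLM it was called when only the 2 BLM groups were fitted.

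Ereg was near 0 in most libraries. It was 0, 0 and 0.0161 FPKM in AT2-PBS, 0.448, 1.17 and 3.57 in AT2-BLM, 0.757, 0.352 and 0.0269 in Atg5-/- AT2-PBS and 0, 0.133 and 0.161 in Atg5-/- AT2-BLM. All 3 AT2-BLM libraries lay above all of AT2-PBS and of Atg5-/- AT2-BLM. In a fit of 17615 genes with no filter on low values it rose by 1.27 ± 0.34 with BLM in Atg5f/f cells (limma adjusted p = 0.0497) and was lower in Atg5-/- than in Atg5f/f cells after BLM (-1.15 ± 0.34, adjusted p = 0.611). The BLM effects differed by -1.57 ± 0.49 (adjusted p = 0.109). Without the libraries with Ins2 the 3 values were 1.27, -1.15 and -1.18, the first 2 called. At these levels the pseudocount of 1 sets much of the size of the change, and the highest value again was AT2-BLM 3.

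Areg, Hbegf and the immediate early genes Fos, Egr1 and Ier2, a set chosen after the values were seen, had the same order of libraries within each PBS group. In AT2-PBS the order from high to low was replicate 1, 3 and 2 for Areg, Hbegf and Dusp6 as well as for the 3 early genes, which are transcribed within minutes of a stimulus. In Atg5-/- AT2-PBS it was replicate 2, 1 and 3 for Areg, Hbegf, Fos, Egr1 and Ier2, but not for Dusp6. Fos was 1541, 334.1 and 414.3 FPKM in AT2-PBS and 543.1, 1414 and 511.4 in Atg5-/- AT2-PBS. Ereg followed neither order. Tgfa, another EGFR ligand, did not follow that of AT2-PBS and followed that of Atg5-/- AT2-PBS at nearly equal levels (1.839 to 1.867 FPKM). The early gene Egr2 had the whole order in AT2-PBS but shared only the highest library in Atg5-/- AT2-PBS. AT2-PBS 1 and Atg5-/- AT2-PBS 2, the highest libraries, are both among those with Ins2. In the BLM groups the order of Fos, Egr1 and Ier2 was not that of Areg and Hbegf. The part of this early gene signal in the ligand levels was not tested.

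**Figure D4:**
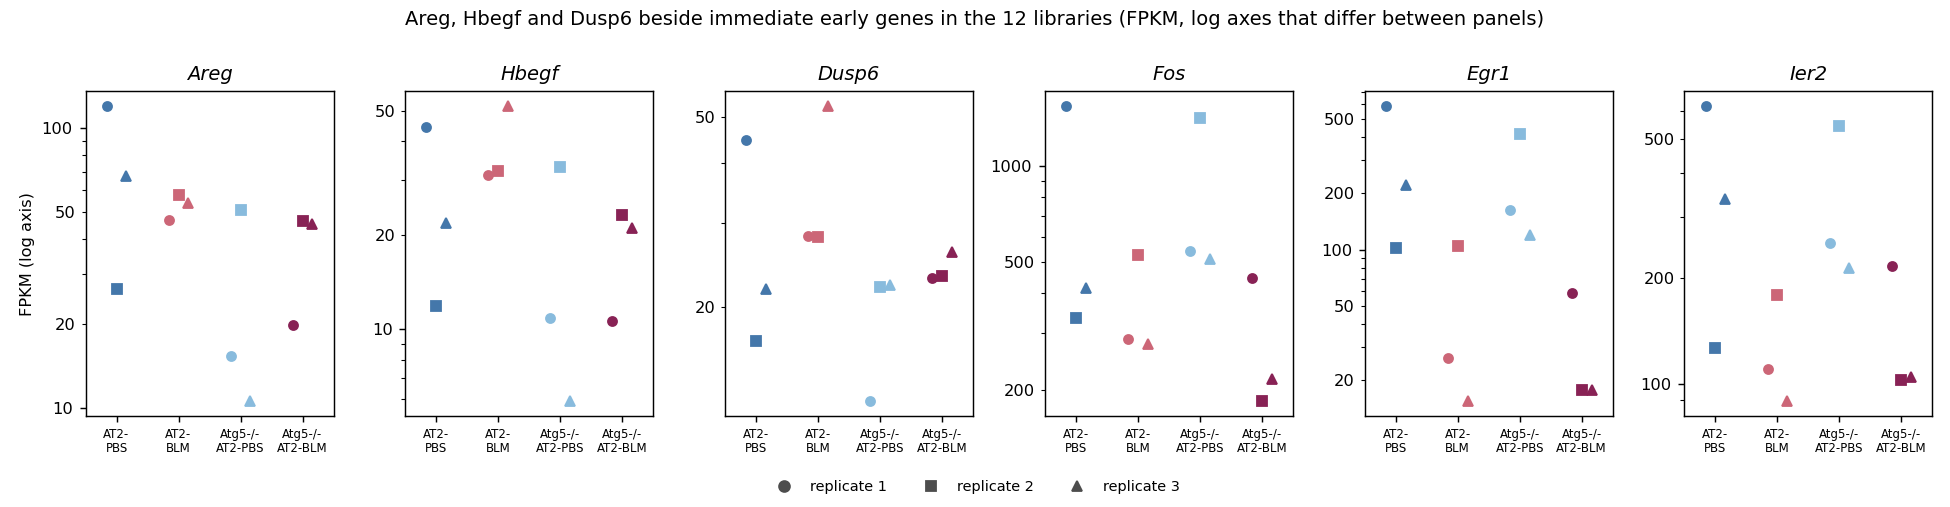
FPKM of Areg, Hbegf and Dusp6 beside the immediate early genes Fos, Egr1 and Ier2 in the 12 libraries, on log axes that differ between panels, with replicates as symbols. AT2-PBS 1 and Atg5-/- AT2-PBS 2 stand highest of their groups for Areg, Hbegf, Fos, Egr1 and Ier2, and Dusp6 is highest in AT2-BLM 3 at 52.8.

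Erbb2 encodes the partner receptor that has no ligand of its own. Its FPKM was 8.11, 9.24 and 8.27 in AT2-PBS, 10.2, 10.9 and 12.3 in AT2-BLM, 6.13, 6.94 and 6.02 in Atg5-/- AT2-PBS and 11.6, 8.59 and 12.6 in Atg5-/- AT2-BLM. In both genotypes every BLM library lay above every PBS library. The rise was 0.68 ± 0.16 in Atg5-/- cells (adjusted p = 0.0209), 1.61-fold, and it was not called with scaling to Cdh1 (0.27). Markers of other cells fell in the same contrast. Those of club and ciliated cells, mostly Scgb1a1, went from 23410 to 85010 down to 1175 to 2184 FPKM. Leukocyte markers went from 397.5 to 519.5 down to 44.2 to 142.8 and fibroblast markers from 89.7 to 100.9 down to 5.25 to 15.4. Their part in the Erbb2 contrast was not tested. In Atg5f/f cells the BLM contrast of 0.35 ± 0.16 was not called (adjusted p = 0.153). The difference between these contrasts was 0.34 ± 0.23 (adjusted p = 0.453). With PBS, the Erbb2 contrast of Atg5-/- against Atg5f/f cells was -0.37 ± 0.16 with ranges apart, a fold of 1.30 that is under the criterion (adjusted p = 0.194). The annotation places 2 genes on the opposite strand within the Erbb2 span and 2 within that of Egfr, and it is not stated whether the fragments were assigned by strand.

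Erbb3 was 10.3, 9.64 and 6.86 FPKM in AT2-PBS, 7.63, 7.85 and 11.5 in AT2-BLM, 5.48, 5.82 and 5.46 in Atg5-/- AT2-PBS and 11.9, 3.13 and 12.0 in Atg5-/- AT2-BLM. Atg5-/- AT2-BLM 2 stood far under its 2 partners, and was also the lowest of its group for Erbb2 and Fgfr2. No change of Erbb3 was called as fitted, the largest being -0.58 ± 0.37 with loss of Atg5 under PBS (adjusted p = 0.403), where ranges were apart, and this one was called when only the 2 groups were fitted. Without Atg5-/- AT2-BLM 2 the rise with BLM in Atg5-/- cells was 0.98 and called. Egfr, the receptor of the 3 ligands, was the least expressed of the tested genes, at 1.44, 1.31 and 1.05 FPKM in AT2-PBS, 1.12, 0.50 and 0.92 in AT2-BLM, 1.22, 1.501 and 1.53 in Atg5-/- AT2-PBS and 1.34, 0.50 and 0.48 in Atg5-/- AT2-BLM. Its change with BLM was -0.31 ± 0.21 in Atg5f/f cells (adjusted p = 0.321) and -0.48 ± 0.21 in Atg5-/- cells (adjusted p = 0.207), and ranges overlapped in both. The second was called at -0.70 without Atg5-/- AT2-BLM 1, the Egfr value of 1.34, and at -0.77 with scaling to Cdh1. The 3 receptor genes together summed to 12.8 to 14.3 FPKM in Atg5-/- AT2-PBS against 16.2 to 20.2 in AT2-PBS. Erbb4 was at 0 in 10 of 12 libraries and at most 0.0146 FPKM.

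No tested feedback gene, Spry2 or Dusp6, was called in any comparison as fitted. Spry2 was 53.1, 24.7 and 29.5 FPKM in AT2-PBS, 20.2, 22.5 and 32.8 in AT2-BLM, 23.5, 22.4 and 27.5 in Atg5-/- AT2-PBS and 34.0, 36.4 and 19.7 in Atg5-/- AT2-BLM. All groups overlapped, and the changes with BLM were -0.44 ± 0.30 in Atg5f/f cells (adjusted p = 0.306) and 0.24 ± 0.30 in Atg5-/- cells (adjusted p = 0.714, and -0.20 with scaling to Cdh1). The first was called with median-ratio scaling (-0.63) or quantile normalization (-0.68). It was -0.13 and not called without AT2-PBS 1, the library at 53.1, or without all the libraries with Ins2. Dusp6 was 44.7, 17.0 and 21.8 FPKM in AT2-PBS, 28.1, 28.1 and 52.8 in AT2-BLM, 12.7, 22.03 and 22.2 in Atg5-/- AT2-PBS and 23.0, 23.3 and 26.0 in Atg5-/- AT2-BLM. Its Atg5-/- AT2-BLM values lay above those with PBS and under those of AT2-BLM, with contrasts of 0.37 ± 0.34 (adjusted p = 0.612, and -0.07 with scaling to Cdh1) and -0.51 ± 0.34 (adjusted p = 0.732). In Atg5f/f cells the change with BLM was 0.43 ± 0.34 (adjusted p = 0.398), and it was 0.82 and called without AT2-PBS 1. Spry4 stayed at 0.314 to 1.095 FPKM in all libraries, with 0.565, 0.314 and 0.409 in AT2-PBS against 0.825, 0.974 and 1.095 in AT2-BLM, and its unfiltered change of 0.46 ± 0.14 with BLM in Atg5f/f cells (adjusted p = 0.0733) was under the fold criterion, and was called at 0.53 without the libraries with Ins2.

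AT2-PBS 1 was the highest library of its group for 8 of the 10 genes, and AT2-BLM 3 for 7 of them. Without AT2-PBS 1 the calls of Areg and Fgfr2 with loss of Atg5 were lost and Dusp6 was called with BLM, as given above.

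Of the 48 other pathway genes tested, 6 rose and 11 fell with BLM in Atg5f/f cells, where 20.6% of all genes tested were called higher and 7.77% lower, with a median log2 change of -0.13 against 0.17 over all genes tested. Adam9, a protease of the family that releases the ligands, rose from 15.2, 16.9 and 13.2 to 27.8, 31.8 and 52.2 FPKM (1.20 ± 0.23, adjusted p = 0.00606). Ccnd1, the cyclin D1 gene that growth factors induce, rose from 29.3, 19.4 and 13.2 to 60.1, 60.4 and 101.3 FPKM (1.82 ± 0.31, adjusted p = 0.00365). Shc1, an adaptor that links receptors to RAS, rose by 0.93 and Nras by 0.89 on the log2 scale. Egr2, an immediate early factor, fell by 1.11 on that scale. Rhbdf2, which helps mature the ligand-releasing protease, and the kinase gene Map2k1 were also called higher, and Dusp5, Egr1, Etv5, Frs2, Ier2 and Rasa1 were among those called lower, beside Fgf1, Fgfr3 and Spry1 above. Without the libraries with Ins2 the counts were 7 and 10, with the calls of Etv5, Frs2 and Ier2 lost. The call of Rhbdf2 was lost without AT2-PBS 2, that of Frs2 without AT2-PBS 2 or AT2-BLM 2, that of Dusp5 without AT2-PBS 2, AT2-PBS 3, AT2-BLM 1 or AT2-BLM 2, and that of Ier2 without any of 4 libraries (AT2-PBS 1 or 3, AT2-BLM 1 or 3). Map2k1 was not called under any of the 3 scalings, nor Rhbdf2 with scaling to Cdh1.

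In Atg5-/- cells 5 of the 48 rose with BLM and 9 fell, where 7.66% of all genes were called higher and 10.7% lower, with a median of 0.05 against 0.06 over all genes. Without the libraries with Ins2, which leaves 1 Atg5-/- AT2-PBS library, the counts were 1 and 6, and the calls of Adam9, Egr1, Fos, Ier2, Lrig1, Phlda1, Shc1 and Tgfa were lost. Ccnd1 (1.58 ± 0.31, adjusted p = 0.00803) and Adam9 (0.82 ± 0.23, adjusted p = 0.046) rose here too. Egr1 fell from 162.2, 414.8 and 119.1 to 58.5, 17.7 and 17.7 FPKM (-2.87 ± 0.77, adjusted p = 0.0383), and Egr2 and Fos were lower as well, by -1.74 and -1.48. Myc fell from 14.95, 16.4 and 11.9 to 3.34, 1.37 and 3.43 FPKM (-2.10 ± 0.45, adjusted p = 0.0126), and Dusp5, an ERK phosphatase, by -1.998 ± 0.41 (adjusted p = 0.0106). Fgfr1 changed by -0.67, and Phlda1, Shc1 and Tgfa rose, while Fgfr3, Ier2 and Lrig1 were the other genes that fell. The calls of Fos, Ier2, Lrig1, Phlda1 and Shc1 were each lost when 1 of 3 or more of the 6 compared libraries was left out, and that of Tgfa without Atg5-/- AT2-BLM 3. With scaling to Cdh1 the calls of Adam9, Phlda1, Shc1 and Tgfa were lost.

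With loss of Atg5 under PBS 3 of the 48 rose and 7 fell, where 14.1% of all genes were called higher and 5.16% lower, with a median of -0.05 against 0.02. Spry1 was 22.1, 31.4 and 24.3 FPKM in Atg5-/- AT2-PBS, under all 3 AT2-PBS libraries (-1.52 ± 0.38, adjusted p = 0.02). Phlda1, a growth factor-induced gene, fell from 119.1, 79.8 and 165.1 to 45.7, 57.3 and 41.7 FPKM (-1.27 ± 0.25, adjusted p = 0.00404). Rasa1 (-0.73), Fgf1 (-0.69) and Etv5 (-0.65) were called lower and Junb (0.86) higher, none with an adjusted p under 0.05. Tgfa was called lower and Egr2 higher. Without the libraries with Ins2 the counts were 3 and 5, with the calls of Etv5, Fgf1, Junb and Tgfa lost. Leaving out AT2-PBS 2 lost the calls of Egr2, Etv5, Fgf1, Junb, Rasa1 and Tgfa, and leaving out Atg5-/- AT2-PBS 2 those of Egr2, Etv5, Fgf1, Junb and Rasa1. The call of Etv5 was also lost without AT2-PBS 1, that of Egr2 without AT2-PBS 3, that of Fgf1 without Atg5-/- AT2-PBS 1 and that of Junb without Atg5-/- AT2-PBS 1 or Atg5-/- AT2-PBS 3. Scaling to Cdh1 lost those of Etv5, Fgf1, Rasa1 and Tgfa and quantile normalization those of Egr2, Fgfr1 and Junb. After BLM only Myc (-1.498 ± 0.45, adjusted p = 0.607) and Adam9 were called between genotypes, both lower in Atg5-/- cells, 2 of 48 against 3.12% of all genes called lower and 2.04% higher. The call of Adam9 was lost without AT2-BLM 3, Atg5-/- AT2-BLM 1 or Atg5-/- AT2-BLM 2, without the libraries with Ins2, and with quantile normalization or scaling to Cdh1. The BLM effect differed between genotypes for 9 of the 48, among them Etv5, Fgf1, Phlda1, Rasa1 and Spry1 in the direction of Fgfr2 and Fgfr1, Junb and Myc in the other, none with an adjusted p under 0.05, against 5.02% of all genes called in the first direction and 15.2% in the second. Without the libraries with Ins2 the calls of Etv5, Fgf1, Fgfr1, Junb and Spry1 were lost. Phlda1 and Spry1 were called without each of the 12 libraries in turn, while Etv5, Fgf1, Fgfr1, Junb, Myc and Rasa1 each lost the call without 2 or more of them, and Phlda1, Rasa1 and Spry1 lost it with scaling to Cdh1.

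The tested gene outside the 10 whose centred profile over the 12 libraries was most like that of Fgfr2 was Ahcyl2 (root mean square difference 0.165 on the log2 scale, against a spread of 0.501 for Fgfr2 itself). For Areg it was Phlda1 (0.572 against 0.916), for Hbegf Tnfrsf12a (0.369 against 0.856), for Erbb2 Naa40 (0.0977 against 0.319) and for Egfr Cluap1 (0.13 against 0.283). Kdelc2 was closest to Erbb3 (0.222 against 0.485), Lefty1 to Spry2 (0.226 against 0.386) and Shmt1 to Dusp6 (0.209 against 0.506). The likeness of Areg to its nearest gene was thus looser than that of Fgfr2.

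On build mm9 the annotation places Areg at chr5:91568641-91577458 and Ereg at chr5:91503643-91522675, both on the plus strand and next to each other on the chromosome. Egfr lies at chr11:16652206-16818161 and Erbb2 at chr11:98273784-98299030 on the plus strand, and Erbb3 at chr10:128004579-128026708 on the minus strand. Dusp6 is at chr10:98725865-98730122 on the plus strand and Spry2 at chr14:106291166-106296036 on the minus strand. The span annotated for Fgfr2, chr7:137305965-140315033 on the minus strand, overlaps 41 other annotated genes, and was not used further. All values are for whole genes, so isoforms, such as the epithelial form of Fgfr2, were not told apart.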

How the data were processed

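Stranded mRNA libraries of sorted AT2 cells were sequenced for 4 groups of 3 samples. The deposited values are FPKM per gene, which the authors computed with Cufflinks on build mm9 after trimming with Trimmomatic. The study's methods name STAR as the aligner, the submitters' processing notes list HISAT2 2.2.1.0 with Cufflinks 2.2.1, Trimmomatic 0.36 and HTSeq 0.9.1. A normalization with DESeq is stated, and whether it is in these FPKM is not given in the sources used here. FPKM sums differed between samples, and no read counts were used. Groups came from the sample titles, and for 1 AT2-PBS sample, whose description numbers it differently, the title was used.

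Genes that reached 1 FPKM in 3 or more samples (10675 of 21878) were fitted as log2(FPKM + 1) in a single model of the 12 samples with limma 3.58.1 in R 4.3.3 (moderated variances, trend on), and p-values were adjusted with Benjamini and Hochberg's method over all genes tested. Calls used p under 0.05 and a fold of at least 1.4. Fold changes are on the log2(FPKM + 1) scale, which understates changes of low genes. An exact permutation test of 3 against 3 cannot go below p = 0.1 and was not used. The fit was tested on simulated data with known changes. The genes, the pathway list and the marker lists were chosen with earlier results of these data known. Named were all 10 genes, up to 8 of the called pathway genes with non-overlapping ranges and the largest changes in each comparison, and the 1 gene most like each tested gene. Other pathway genes that were called are given by name only, 1 gene that was called is counted but not reported here by name, and levels given for genes with no call were chosen after their values were seen. Alternatives were another pseudocount, no filter, scaling to Cdh1, median-ratio scaling, quantile normalization, a fit per pair of groups, a block for the replicate number, no trend and leaving out each sample. A covariate for Y-linked expression and leaving out the libraries with Ins2 were added after seeing the data, as were the scalings and the left-out libraries for the pathway genes. Python scripts made the summaries and figures.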

Additional observations from a re-analysis of the deposited data

Results flagged for a closer look

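The BLM effect on Fgfr2 differed between the genotypes by 1.21 on the log2 scale (SE 0.40, n = 3 in each of 4 groups, limma adjusted p = 0.0932). It was tested as the interaction of genotype and BLM. Fgfr2 fell by 1.07 in Atg5f/f cells, where 3 of 3 BLM libraries lay under all PBS libraries, and changed by 0.13 in Atg5-/- cells, where the BLM libraries lay on both sides of the PBS libraries. The difference ranged from 0.85 to 1.47 when 1 library was left out, and was called each time. The call was lost without the 3 libraries with Ins2, as given above, and the difference did not pass the adjusted threshold.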

How the results depend on the processing

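Over the 10675 genes tested, the share of higher genes among those called moved with the scaling. It was 72.6% with BLM in Atg5f/f cells as fitted and 46.9% (quantile normalization), 50.9% (median-ratio scaling) and 43.4% (scaling to Cdh1) otherwise. For BLM in Atg5-/- cells it was 41.7% and then 51.8%, 30.7% and 4.61%. With loss of Atg5 it was 73.2% under PBS, with 42.6% (quantile) and 97.2% (Cdh1), and 39.6% after BLM, with 53.5% (median-ratio) and 79.8% (Cdh1). For the difference of BLM effects it was 24.9%, then 54.8%, 35% and 10.6%. The median change of all genes was 0.17 with BLM in Atg5f/f cells and -0.02, 0.02 and -0.01 under these scalings. Quantile normalization moved it from 0.02 to -0.17 for loss of Atg5 with PBS and from -0.09 to 0.14 for the difference of BLM effects. Scaling to Cdh1 moved it to -0.32 for BLM in Atg5-/- cells, to 0.34 and 0.09 for loss of Atg5 with PBS and after BLM, and to -0.27 for the difference.

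For BLM in Atg5f/f cells the 1 call (Fgfr2) held under all alternatives run. It became 2 with quantile normalization or median-ratio scaling (adding Spry2), 3 without the libraries with Ins2 (adding Hbegf and Dusp6), and 1 to 2 when 1 library was left out. For BLM in Atg5-/- cells the 1 call (Erbb2) became 2 with a pseudocount of 0.1 or median-ratio scaling (adding Egfr), 2 with the Y-linked covariate (adding Fgfr2), 3 without the libraries with Ins2 (adding Areg and Hbegf) and 1 to 2 when 1 library was left out. With scaling to Cdh1 the 1 call was Egfr. For loss of Atg5 with PBS the 2 calls became 0 with the adjusted p and with scaling to Cdh1, 3 with quantile normalization (adding Erbb2), 2 of which 1 was new when only the compared groups were fitted (Erbb3 in place of Areg), and 0 to 2 when 1 library was left out (0 without AT2-PBS 1, Atg5-/- AT2-PBS 1 or Atg5-/- AT2-PBS 3). Leaving out the libraries with Ins2 leaves 1 Atg5-/- AT2-PBS library, which is assumed to vary like the other groups. After BLM the count of 0 became 1 in 7 alternatives, namely Fgfr2 with each of the 3 scalings, the replicate block or the Y-linked covariate, and Hbegf with only the compared groups or without the libraries with Ins2. It was 0 to 1 when 1 library was left out (Fgfr2 without Atg5-/- AT2-BLM 2). For the difference of BLM effects the 1 call became 0 with the adjusted p or without the libraries with Ins2, 3 with quantile normalization (adding Erbb2 and Spry2) and 1 to 3 when 1 library was left out (3 without Atg5-/- AT2-BLM 2).

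The main fit did not pair samples by replicate number. The deviations of same-numbered samples had a mean correlation of -0.0094 over 18 pairs, with values from -0.295 to 0.227. Between PBS and BLM they were 0.191, 0.045 and 0.124 in Atg5f/f cells and 0.0036, 0.227 and 0.083 in Atg5-/- cells. Between AT2-PBS and either Atg5-/- group all were below 0. Pairs of different number ran from -0.198 to 0.259. A mean that pools such values cannot decide whether the samples were paired. With the replicate block the Fgfr2 contrast after BLM was again 0.55 and was then called, raising that count from 0 to 1, and the counts of the other 4 comparisons stayed at 1, 1, 2 and 1.

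Of the single-gene values under the alternatives, 592 kept direction and call, 32 became called, 15 lost the call and 41 changed sign. No called value changed sign. For BLM in Atg5f/f cells Areg was 0.31 without the libraries with Ins2, and Erbb3 was -0.20, -0.17, -0.21 and -0.033 under those 3 scalings and with the Y-linked covariate. In Atg5-/- cells scaling to Cdh1 gave Hbegf -0.042, Fgfr2 -0.32, Spry2 -0.20 and Dusp6 -0.071. For loss of Atg5 with PBS, Egfr was -0.19 with quantile normalization and -0.019 with the Y-linked covariate, and without the libraries with Ins2 Spry2 was 0.028 and Dusp6 0.20. After BLM Erbb2 was 0.053, 0.023 and 0.12 with the 3 scalings in the order above. For the difference of BLM effects Hbegf was 0.25 without the libraries with Ins2, Egfr was 0.031 with quantile normalization and 0.0093 with the Y-linked covariate, and Dusp6 was 0.18 and 0.041 with quantile normalization and median-ratio scaling. Leaving out 1 library gave -0.76 to 0.31 for Areg and -0.17 to 0.11 for Erbb3 with BLM in Atg5f/f cells, and -0.13 to 1.02 for Hbegf and -0.22 to 0.40 for Fgfr2 in Atg5-/- cells. For loss of Atg5 after BLM it gave -0.30 to 0.038 for Egfr, -0.14 to 0.11 for Erbb2 and -0.43 to 0.40 for Erbb3, and for the difference of BLM effects -0.83 to 0.33 for Hbegf and -0.45 to 0.24 for Dusp6. The cause of these changes was not tested. Depth is unknown, which limits what can be said of Ereg, Spry4 and Egfr.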
